A study of Mus musculus with 6 samples.

Results

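The genes described here encode 9 cell adhesion molecules, namely Sele, Selplg, Icam1, Icam2, Vcam1, Pecam1, Alcam, Cd44 and Ninj1. They were taken by gene symbol from a table of 55335 genes, and all 9 passed the filter on low counts. The table holds RNA-seq counts of bone marrow-derived macrophages (BMDMs), which are macrophages grown in culture from marrow of the mouse femur and tibia with medium conditioned by L929 cells, a source of the growth factor CSF1. The mice were C57BL/6, with no other allele given, and were young adult males. Cells of the Control group (n = 3) received PBS and cells of the LPS group (n = 3) received lipopolysaccharide, the bacterial cell wall component sensed by TLR4, and both were collected after 1 h. No source used here gives the dose of LPS for these cultures or says whether libraries came from separate animals, so p-values measure the spread between these libraries, which may be technical.

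Leukocytes leave the blood in steps. Selectins hold a passing cell loosely through sugar-bearing ligands such as the product of Selplg. Integrins on the cell then bind immunoglobulin-family molecules such as ICAM-1 and VCAM-1 firmly, and PECAM-1 helps the cell to cross the vessel wall. E-selectin and VCAM-1 are best known from endothelium exposed to inflammatory cytokines, where NF-kappa B drives their transcription, while PSGL-1 (the product of Selplg), CD44 and the integrins are typical of leukocytes. Macrophages use several of the same molecules to hold other leukocytes, matrix and one another.

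Library totals were 37787611 to 41516330 counts, so that 3 counts, taken as the floor, equalled 0.0630 to 0.0919 CPM. CPM are counts divided by the library total and multiplied by a constant, here with the totals corrected by trimmed-mean (TMM) factors. Tnf, a check of the treatment, averaged 20.2 ± 1.19 CPM in Control and 2302 ± 49.8 CPM in LPS (SD, n = 3 each). The TMM factors averaged 1.15 in Control and 0.869 in LPS, so levels and sums in CPM depend on this scaling. The summed level of 8 macrophage markers was 29946 to 31229 CPM in Control and 35887 to 36245 CPM in LPS. Of these 8, 6 were above and 1 below Control at an adjusted p under 0.05. Cd14, a co-receptor for LPS that averaged 398.0 CPM in Control and 3623 CPM in LPS, was the 1 called, and Fcgr1 averaged 396.2 and 284.2 CPM. A gene was called when its edgeR adjusted p was under 0.05 and its log2 fold change was beyond 1 in either direction. Of 15687 tested genes, 10.5% were called higher in LPS and 10.4% were called lower. An adjusted p under 0.05 in either direction was found for 67.7%, with 5159 genes above and 5467 below Control. In bulk RNA, fewer cells of a type and less RNA per cell cannot be told apart.

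The 250 bases before the RefSeq start are shown for Sele, Icam1 and Cd44, the called genes that have an entry in the RefSeq promoter table used (GRCm38.p6), so that the sequence next to each large change can be read. The windows are chr1:164047984-164048233 on the plus strand for Sele, chr9:21015690-21015939 on the plus strand for Icam1 and chr2:102901666-102901915 on the minus strand for Cd44. Capitals mark matches on either strand to any of 3 motifs, which do not overlap in these windows. The first, GGNNNTTCC, resembles a kappa B site, to which NF-kappa B binds. The second, TGANTCA, is the form that AP-1 factors recognise. The third is the TATA box, which was searched for as TATAAA.
Sele: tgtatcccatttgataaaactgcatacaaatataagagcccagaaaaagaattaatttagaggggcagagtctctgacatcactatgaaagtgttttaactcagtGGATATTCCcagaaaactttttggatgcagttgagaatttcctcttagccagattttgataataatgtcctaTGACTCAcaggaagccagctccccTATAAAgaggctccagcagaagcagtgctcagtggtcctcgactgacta
Icam1: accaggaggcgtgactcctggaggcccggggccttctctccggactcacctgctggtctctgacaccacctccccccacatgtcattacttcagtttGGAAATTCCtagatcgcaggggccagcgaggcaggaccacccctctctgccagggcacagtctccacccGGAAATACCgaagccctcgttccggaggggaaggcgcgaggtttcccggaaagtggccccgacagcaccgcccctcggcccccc
Cd44: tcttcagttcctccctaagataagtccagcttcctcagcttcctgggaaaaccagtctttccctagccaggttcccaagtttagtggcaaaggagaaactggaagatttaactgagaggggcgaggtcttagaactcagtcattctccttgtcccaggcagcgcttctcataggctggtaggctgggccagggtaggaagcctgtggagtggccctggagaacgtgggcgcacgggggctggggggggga

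The Sele window held GGATATTCC from 145 to 137 bases before the start, the AP-1 form TGACTCA from 73 to 67 bases before it and the TATA box from 49 to 44 bases before it. The Icam1 window held GGAAATTCC, which matched GGNNNTTCC on both strands, from 153 to 145 bases before the start, and GGAAATACC, which matched on the minus strand, from 84 to 76 bases before it. None of the 3 motifs was found in the windows of Cd44, Ninj1 or Alcam. Among 32851 promoter windows of the same length, 15.7% held the kappa B-like motif, 6.75% the AP-1 motif and 12.4% the TATA box. These letters were chosen with the expression values known, and a match is a description of sequence, not of binding. GC content was 40.4% for Sele, 65.2% for Icam1 and 56.4% for Cd44. Selplg, Icam2, Vcam1 and Pecam1 had no entry.

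Sele, Icam1, Vcam1 and Cd44 were called higher in LPS, and none of the 9 genes was called lower. Ninj1, Pecam1, Alcam and Selplg had smaller differences with adjusted p under 0.05, and Icam2 was the gene whose difference missed that threshold. The count called higher was 4 of 9, against 10.5% of tested genes, and the count with an adjusted p under 0.05 was 8 of 9, against 67.7%. The 9 genes were chosen with earlier results of these data known, so these counts are a description. The median log2 fold change of the 9 genes was 0.69, and that of all tested genes was -0.01. On the TMM scale the levels of Control and LPS libraries did not overlap for any of the 9 genes except Icam2.

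**Figure D1:**
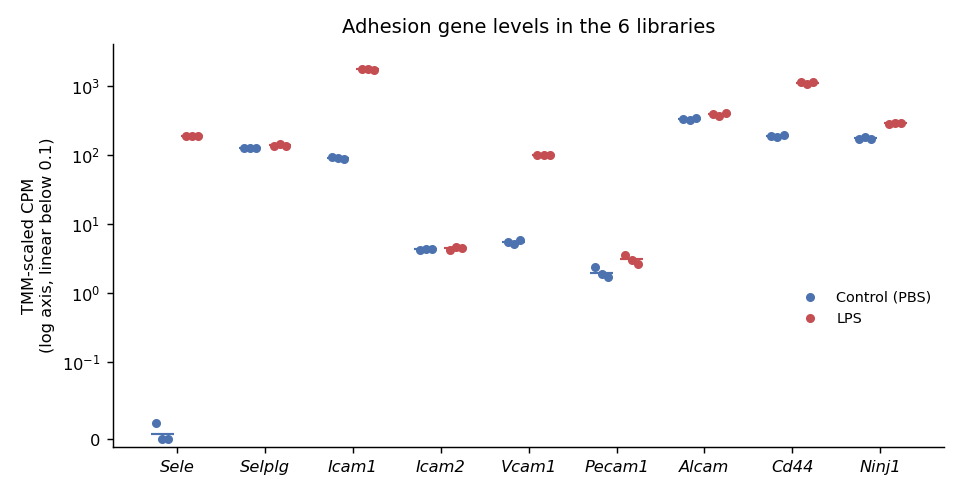
TMM-scaled CPM of each adhesion gene in the 3 Control (blue) and 3 LPS (red) libraries, on an axis that is logarithmic above 0.1 and linear below it, with a line at each mean. Sele lies at or near 0 in Control and near 188 CPM in LPS, Icam1, Vcam1 and Cd44 are separated widely, and the points of Icam2 overlap.

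Sele encodes E-selectin, which binds sugars of the sialyl Lewis x type on PSGL-1, CD44 and other carriers. The gene (ENSMUSG00000026582) lies on chr1:164048234-164057677 of GRCm38, on the plus strand. It had 1, 0 and 0 counts in Control libraries 1 to 3, and 6331, 6186 and 6296 counts in LPS libraries 1 to 3. All Control libraries were under the floor of 3 counts and the LPS libraries lay within a narrow range of 187.7 ± 2.41 CPM (SD, n = 3). Set against 3 counts in each Control library, Sele was at least 2827-fold higher in LPS. The edgeR adjusted p was 7.92e-24, and the fitted log2 fold change of 14.15, the second largest of the tested genes, depends on how a count of 0 is treated. Without Control library 1, the 1 Control library with a count, the fitted value was 15.81, and it was 13.71 to 14.17 without any other single library. With at least 10 counts demanded in every library Sele was not tested.

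Markers of endothelium, the cell type in which E-selectin is best known, were measured beside it. The summed level of 10 such markers was 152.9 to 159.4 CPM in Control and 203.8 to 211.6 CPM in LPS, and 7 of the 10 stayed under 50 counts in all 6 libraries. None of the 10 was at 0 in every library. Tek had at most 6 counts, Emcn at most 10, Cldn5 at most 12 and Ptprb at most 16, while Vwf (5292 to 5779 counts) and Kdr (1353 to 1688 counts) made up most of the sum. Cdh5, which had 37, 38 and 27 counts in Control against 98, 81 and 85 in LPS, was the 1 marker of this list called higher. The part of other cells in the level of Sele was not tested.

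Selp, which encodes P-selectin of platelets and endothelium, lies on the same strand of chromosome 1 and begins 57586 bp beyond the end of Sele. Selp had 10, 11 and 4 counts in Control against 120, 106 and 110 in LPS. Its log2 fold change was 4.20 (SE 0.23, edgeR adjusted p = 2.12e-11), at a level of 3.35 ± 0.194 CPM in LPS. The 5 markers of platelets and megakaryocytes, which store P-selectin, summed to 18.2 to 19.8 CPM in Control and 32.5 to 33.3 CPM in LPS. None was at 0 in every library, and 1 of 4 tested was called higher, against 10.5% of all tested genes. The part of these cells in the level of Selp was not tested.

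Selplg encodes PSGL-1, the ligand of all selectins on leukocytes, and lies on chr5:113818536-113832644 on the minus strand (ENSMUSG00000048163). Counts were 5937, 5692 and 5730 in Control and 4459, 4631 and 4618 in LPS, which after TMM scaling were 125.0 ± 0.930 and 136.8 ± 4.61 CPM (SD, n = 3). The 3 LPS libraries were above the 3 Control libraries on that scale. The log2 fold change was 0.13 (SE 0.03, 95% interval 0.06 to 0.20, adjusted p = 0.00245), but library size alone gave -0.27 and upper quartile scaling gave -0.01, so its direction depends on the scaling. Library size alone moved the median of all tested genes by -0.40 and upper quartile scaling moved it by -0.14. Relative to the median of all tested genes Selplg stood 0.14 higher under all 3 scalings.

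Genes that build or carry selectin ligands were listed with the selectins. Of 18 listed selectin and ligand genes 15 were tested, 2 were called higher and 1 was called lower. At an adjusted p under 0.05, 6 were above and 4 below Control, and the median log2 fold change was 0.12. Of all tested genes, 10.5% were called higher, 10.4% were called lower and 67.7% had an adjusted p under 0.05. The genes called higher were Selp and Tpst2, a tyrosine sulfotransferase of the type that modifies PSGL-1, which averaged 40.4 ± 2.94 CPM in Control and 85.9 ± 3.75 CPM in LPS (log2 fold change 1.09, SE 0.05, adjusted p = 8.96e-13). Fut7, a fucosyltransferase of sialyl Lewis x synthesis, had 240, 247 and 207 counts in Control against 74, 73 and 81 in LPS and fell by 1.13 on the log2 scale (SE 0.12, adjusted p = 1.49e-07). Fut4, a second fucosyltransferase of that pathway, differed by -0.84 (SE 0.08, adjusted p = 3.95e-08) and was not called. Glg1, which encodes the E-selectin ligand ESL-1, had a log2 fold change of 0.12 (SE 0.03, adjusted p = 0.00311). With library size alone or upper quartile scaling Selp was the 1 gene of this list called higher.

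Icam1 encodes ICAM-1, which the integrins LFA-1 and Mac-1 bind, and lies on chr9:21015985-21028817 on the plus strand (ENSMUSG00000037405). Counts were 4456, 4040 and 4023 in Control and 57924, 57517 and 57704 in LPS, or 90.1 ± 3.24 and 1728 ± 33.4 CPM (SD, n = 3). The LPS libraries lay far above the Control libraries, at a mean ratio of 19.2. Its log2 fold change was 4.26 (SE 0.04, 95% interval 4.18 to 4.35, adjusted p = 8.80e-23), which ranked 256 from the top among 15687 tested genes. The antisense gene Gm47079 shares 511 bp of exon with Icam1 and had 2 to 34 counts, and since the strand setting of the counting is not stated, reads of both cannot be told apart.

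Icam4 and Icam5 follow Icam1 on the same strand, 555 and 3255 bp beyond its end. Icam4, best known from red cells, had 20, 17 and 12 counts in Control against 368, 313 and 323 in LPS (log2 fold change 4.82, SE 0.15, adjusted p = 4.18e-15). These counts were 0.298 to 0.449% of those of Icam1 in Control and 0.544 to 0.635% in LPS. Icam5, best known from neurons, had 25, 18 and 27 counts in Control against 33, 36 and 35 in LPS (log2 fold change 1.04, SE 0.24, adjusted p = 8.41e-04). All 3 genes of the cluster were called higher. Icam5 lay just beyond the fold criterion and was not called with library size alone (0.64), with upper quartile scaling (0.90), without Control library 2 (0.90) or without LPS library 2 (0.99). Icam4 and Icam5 averaged 10.0 and 1.04 CPM in LPS. Whether reads that run past Icam1 contribute to the counts of its neighbours was not tested.

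**Figure D2:**
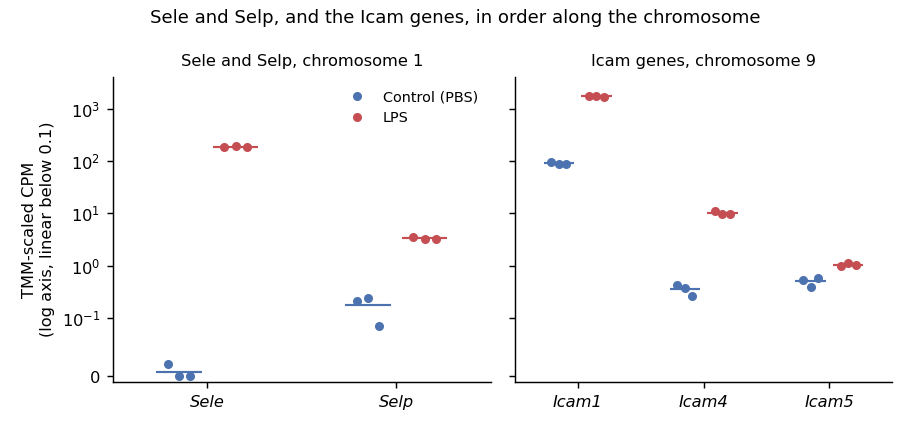
TMM-scaled CPM of Sele and Selp (left) and of the Icam genes on chromosome 9 (right), in order along each chromosome, in the Control (blue) and LPS (red) libraries, on an axis that is logarithmic above 0.1 and linear below it, with a line at each mean. Sele, Selp, Icam1, Icam4 and Icam5 are separated between groups, and Selp averages 0.180 CPM in Control and 3.35 CPM in LPS.

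Icam2, also a ligand of LFA-1, is expressed by resting endothelium and leukocytes and lies away from the cluster, on chr11:106377656-106388075 on the minus strand (ENSMUSG00000001029). Counts were 203, 197 and 198 in Control and 141, 153 and 154 in LPS. On the TMM scale these were 4.31 ± 0.050 and 4.47 ± 0.247 CPM, and the groups overlapped, with LPS above Control in 2 of 3 same-numbered pairs. The log2 fold change was 0.05 (SE 0.10, 95% interval -0.15 to 0.26, adjusted p = 0.644). Library size alone gave -0.35 and upper quartile scaling -0.09, and 0.07 above the median of all tested genes under each scaling. Icam1 and Icam2 thus had intervals of 4.18 to 4.35 and -0.15 to 0.26.

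Vcam1 encodes VCAM-1, which the integrin VLA-4 binds, and lies on chr3:116109949-116129688 on the minus strand (ENSMUSG00000027962). Counts were 259, 234 and 268 in Control and 3288, 3204 and 3387 in LPS, or 5.48 ± 0.316 and 98.6 ± 0.841 CPM. All LPS libraries were far above all Control libraries, at a mean ratio of 18.0. Vcam1 had a log2 fold change of 4.17 (SE 0.05, 95% interval 4.06 to 4.27, adjusted p = 1.96e-21), ranking 267 from the top. Its interval overlapped that of Icam1, and a difference between them was not tested. The antisense gene Gm43109, which shares 61 bp of exon with Vcam1, had 0 to 3 counts. The 7 stromal markers summed to 14.9 to 16.1 CPM in Control and 18.2 to 21.2 CPM in LPS. Like endothelial ones, they mark cells that can carry VCAM-1. None of the 7 was at 0 in every library, and 1 of 6 tested was called higher, against 10.5% of all tested genes. The part of such cells in the level of Vcam1 was not tested.

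Pecam1 encodes PECAM-1 (CD31) of endothelium, platelets and leukocytes and lies on chr11:106654217-106750628 on the minus strand (ENSMUSG00000020717). Counts were 112, 85 and 78 in Control and 119, 100 and 90 in LPS, or 1.97 ± 0.341 and 3.08 ± 0.451 CPM. The lowest LPS library lay above the highest Control library after scaling. The log2 fold change was 0.64 (SE 0.15, 95% interval 0.32 to 0.96, adjusted p = 0.00126), and it was 0.24 with an adjusted p of 0.164 when scaled by library size alone. Pecam1 was not called, and its interval stayed under the criterion of 1. On the TMM scale, 3 of 6 tested endothelial markers and 2 of 4 tested platelet markers were higher in LPS at an adjusted p under 0.05 and none was lower. Of all 15687 tested genes, 5159 were higher and 5467 were lower at that threshold. Markers were not followed through the other scalings. Library size alone moved the median of all tested genes by -0.40, and Vwf and Kdr had log2 fold changes of 0.44 and 0.24 with TMM. The part of endothelial cells and platelets in the level of Pecam1 was not tested.

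Alcam encodes ALCAM (CD166), the ligand of CD6 on T cells, and lies on chr16:52248996-52454074 on the minus strand (ENSMUSG00000022636). Counts were 15613, 14357 and 15591 in Control and 13201, 11965 and 13536 in LPS, or 327.9 ± 10.1 and 385.9 ± 16.9 CPM. Its LPS libraries were all above its Control libraries on the TMM scale. The log2 fold change was 0.24 (SE 0.04, 95% interval 0.16 to 0.31, adjusted p = 2.47e-05) and became -0.17 (adjusted p = 6.12e-04) with library size alone, so the direction of this small difference depends on the scaling. Its receptor gene Cd6 had 3 to 7 counts per library and was not tested.

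Cd44 encodes the hyaluronan receptor CD44, which also carries selectin ligands, and lies on chr2:102811141-102901665 on the minus strand (ENSMUSG00000005087). Counts were 8838, 8111 and 8896 in Control and 37352, 34682 and 38704 in LPS, or 186.0 ± 6.64 and 1104 ± 38.1 CPM. All LPS libraries were above all Control libraries, at a mean ratio of 5.94. The log2 fold change was 2.57 (SE 0.04, 95% interval 2.49 to 2.65, adjusted p = 7.58e-20), the smallest of the 4 called genes, and ranked 632 from the top. Counts per gene hold no information on which of its variable exons were used.

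Ninj1 encodes ninjurin-1, an adhesion protein that also drives rupture of the plasma membrane in dying cells, and lies on chr13:49187485-49196244 on the plus strand (ENSMUSG00000037966). Counts were 8186, 8296 and 7905 in Control and 9475, 9358 and 9653 in LPS, or 175.6 ± 6.94 and 284.2 ± 2.25 CPM. The groups did not overlap and the mean ratio was 1.62. Ninj1 had a log2 fold change of 0.69 (SE 0.03, 95% interval 0.62 to 0.77, adjusted p = 3.79e-12), below the criterion of 1, and was not called. Library size alone gave 0.29 and upper quartile scaling 0.55, both with adjusted p under 0.05. Its paralog Ninj2 had at most 1 count in any library.

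**Figure D3:**
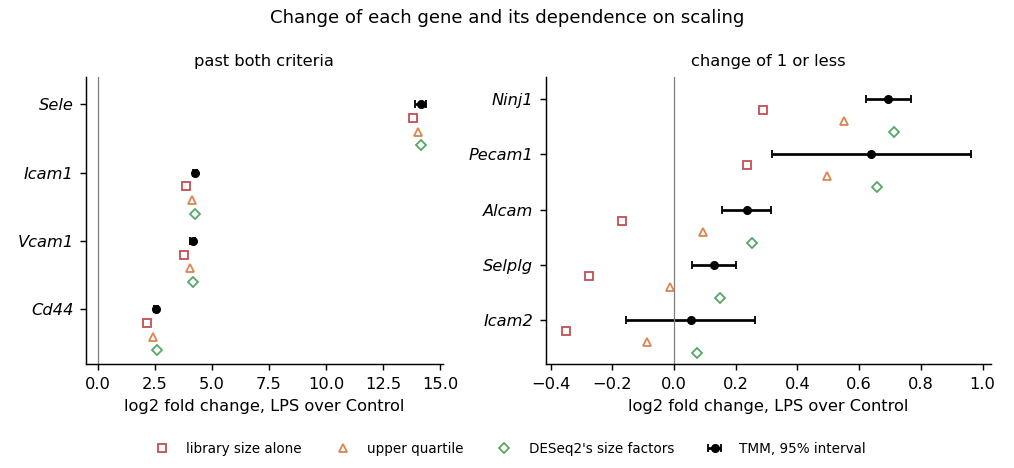
Log2 fold change of LPS over Control for the called genes (left) and for the genes with a change of 1 or less (right, on a finer axis), with black points and 95% intervals for TMM scaling and open symbols for 3 other scalings. The called genes stay far from 0 under each scaling shown, whereas Selplg and Icam2 turn below 0 with library size alone (squares) or upper quartile (triangles) and Alcam does so with the former. The fitted value of Sele rests on Control counts of 1, 0 and 0.

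The changes were alike in the same-numbered pairs of libraries, which the labels place in 1 batch each. Within batches 1 to 3 the log2 difference of Icam1 was 4.20, 4.30 and 4.28, that of Vcam1 was 4.16, 4.23 and 4.09, and that of Cd44 was 2.58, 2.56 and 2.56. Ninj1 differed by 0.72, 0.64 and 0.73 and Pecam1 by 0.58, 0.69 and 0.63. The spread over batches was smaller than the difference between groups for each of these genes. Icam2, at -0.02, 0.10 and 0.08, was the gene whose sign differed between batches.

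Levels of different genes were compared per kilobase (kb) of exon, using the union of annotated exons, which understates genes with long exons that are rarely used. In Control the order was Ninj1 at 111.9 ± 4.42, Alcam at 46.0 ± 1.41, Selplg at 29.2 ± 0.218, Cd44 at 27.4 ± 0.980 and Icam1 at 20.7 ± 0.744 CPM per kb. Icam2 (2.26), Vcam1 (0.617), Pecam1 (0.317) and Sele (0.00240 CPM per kb) were far below these. Ninj1 alone made up 46.9% of the summed level of the 9 genes in Control, and Icam1 8.66%.

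In LPS the order was Icam1 at 396.3 ± 7.66, Ninj1 at 181.0 ± 1.43, Cd44 at 163.0 ± 5.62, Sele at 64.5 ± 0.826, Alcam at 54.2 ± 2.37, Selplg at 32.0 ± 1.08 and Vcam1 at 11.1 ± 0.0949 CPM per kb. Icam2 (2.35) and Pecam1 (0.495 CPM per kb) came last. Icam1 rose from the fifth place to the first and Sele from the last to the fourth. Icam1 made up 43.8% of the summed level in LPS, Ninj1 20.0%, Cd44 18.0% and Sele 7.12%. The sum over the 9 genes was 238.5 ± 2.44 CPM per kb in Control and 905.0 ± 2.44 CPM per kb in LPS. No neighbours in either order had library ranges that overlapped, with n = 3 in each group.

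**Figure D4:**
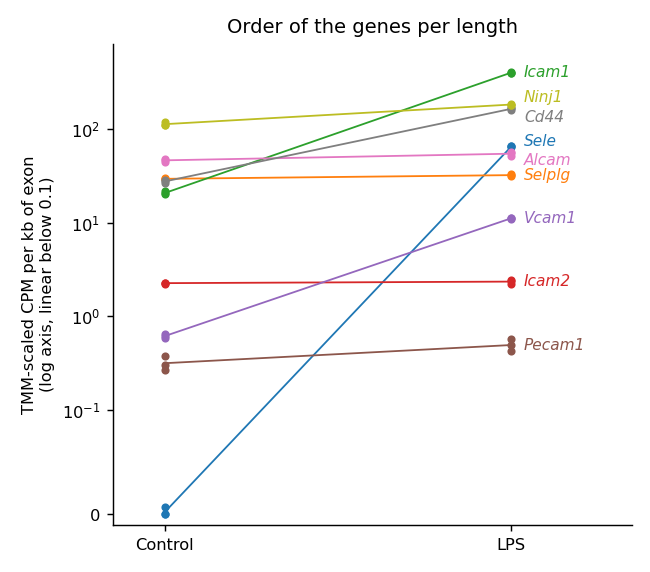
Level of each adhesion gene in TMM-scaled CPM per kb of exon in Control and LPS libraries (points, 3 per group) with lines between the means, on an axis that is logarithmic above 0.1 and linear below it. Icam1 moves from 20.7 to 396.3 and Sele from near 0 to 64.5 CPM per kb, past Alcam and Selplg, which are nearly level.

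RNA of integrin genes was measured in the same libraries. The list holds chains of integrins that bind ICAM-1, ICAM-2 or VCAM-1 and also chains of matrix receptors such as Itgav. All 11 listed integrin genes were tested, 4 were called higher and none was called lower. With an adjusted p under 0.05, 9 had a higher level, and the median log2 fold change was 0.54. Over all tested genes, 10.5% were called higher, 10.4% were called lower and 67.7% had an adjusted p under 0.05. Itgal, the alpha chain of LFA-1, had 670, 699 and 698 counts in Control against 1466, 1409 and 1444 in LPS (log2 fold change 1.53, SE 0.05, adjusted p = 7.09e-15). Itgb2, its beta chain, differed by 0.18 (SE 0.04, adjusted p = 2.60e-04), and Itgam, the alpha chain of Mac-1, by 0.23 (SE 0.03, adjusted p = 5.12e-06), both under the fold criterion. Itga4 and Itgb1, the chains of VLA-4, differed by 0.86 (SE 0.03, adjusted p = 1.83e-13) and 0.48 (SE 0.03, adjusted p = 6.12e-10) and were not called.

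Itgav, the alpha chain of receptors for vitronectin and other matrix proteins, had the largest change of the integrin list, from 176.4 ± 3.58 to 691.0 ± 9.46 CPM (log2 fold change 1.97, SE 0.03, adjusted p = 3.93e-19). Itgad and Itga9 lay just beyond the criterion at 1.01 (SE 0.18) and 1.00 (SE 0.08), and neither was called with library size alone or upper quartile scaling. Itgad was also not called without Control library 1 (0.82), LPS library 1 (0.95) or LPS library 3 (0.97), nor Itga9 without Control library 3 (0.93), LPS library 1 (0.99) or LPS library 2 (0.95). The count called higher was 2 instead of 4 with library size alone, with upper quartile scaling or without LPS library 1.

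Among 23 other immunoglobulin-family and junctional adhesion genes 17 were tested, 5 were called higher and none was called lower. At an adjusted p under 0.05, 13 were above and 2 below Control, and the median was 0.47. The shares of all tested genes were 10.5% called higher, 10.4% called lower and 67.7% with an adjusted p under 0.05. The count called higher was 4 with library size alone, with upper quartile scaling, with at least 10 counts in every library and without Control or LPS library 2, and 6 without Control or LPS library 3. Besides Icam4 and Icam5 the 5 were Pvr, Jam2 and Nectin1. Pvr, the poliovirus receptor CD155 that binds DNAM-1 on lymphocytes, had 597, 578 and 536 counts in Control against 8335, 7733 and 8171 in LPS (log2 fold change 4.29, SE 0.04, adjusted p = 2.03e-22). Its level was 12.3 ± 0.619 CPM in Control and 241.8 ± 5.91 CPM in LPS, with no overlap. Jam2, a junctional adhesion molecule, had 6, 8 and 3 counts in Control against 37, 52 and 30 in LPS (3.25, SE 0.36, adjusted p = 2.88e-07). Nectin1 averaged 1.95 ± 0.288 CPM in Control and 7.87 ± 0.487 CPM in LPS.

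Of 12 actin linkers and sheddases all were tested, 2 were called higher and none was called lower. At an adjusted p under 0.05, 10 were above and 1 below Control, and the median was 0.35. For all tested genes the shares were 10.5% called higher, 10.4% called lower and 67.7% with an adjusted p under 0.05. Ezr, which encodes the linker ezrin that joins CD44, ICAM-1 and PSGL-1 tails to actin, averaged 23.1 ± 0.534 CPM in Control and 74.2 ± 2.97 CPM in LPS (log2 fold change 1.68, SE 0.04, adjusted p = 2.38e-16). Its relatives Msn and Rdx differed by 0.54 (SE 0.03) and 0.14 (SE 0.03) and were not called. Mmp14, a membrane metalloproteinase that can cleave CD44, had 203, 211 and 181 counts in Control against 855, 853 and 807 in LPS (2.55, SE 0.08, adjusted p = 1.93e-15). Adam10 and Adam17, sheddases of many adhesion molecules, differed by 0.26 and 0.49.

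**Figure D5:**
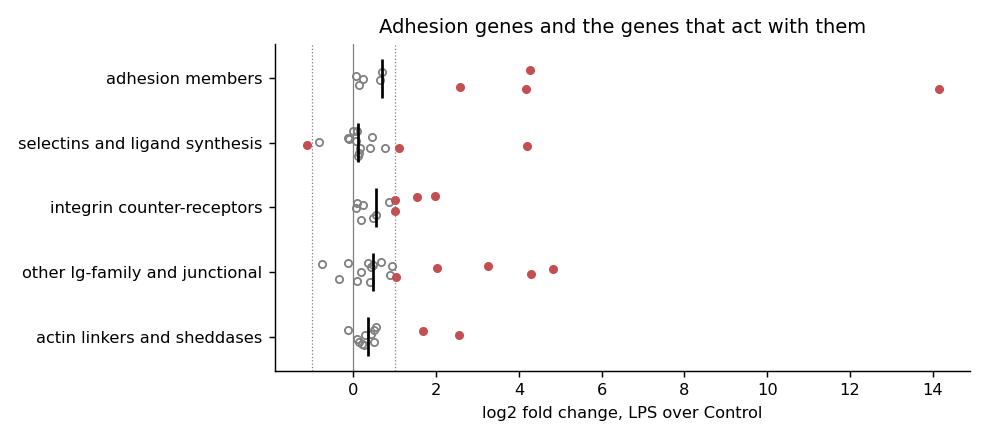
Log2 fold change of LPS over Control for each tested gene of the 9 adhesion genes and of 4 related lists, filled red where called and open where not, with a black bar at each median and dotted lines at 1 and -1. Medians run from 0.12 to 0.69, and most genes of each list lie between the dotted lines.

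For each called gene the gene with the most similar profile was sought, as the smallest Euclidean distance in log2 CPM over the 6 libraries, a measure of both level and change. That of Icam1 was Cd83, a surface protein of activated antigen-presenting cells, at a distance of 0.44, which averaged 77.8 CPM in Control and 1885 CPM in LPS. Of 4 dendritic cell markers, 3 were called higher, against 10.5% of all tested genes, and none was at 0 in every library. They summed to 2.17 to 2.86 CPM in Control and 7.11 to 7.90 CPM in LPS. The part of dendritic cells in the levels of Icam1 and Cd83 was not tested. Vcam1 was nearest to Prag1, a pseudokinase gene, at a distance of 0.47, with 4.63 and 101.9 CPM. Sele was nearest to Areg, which encodes the EGF receptor ligand amphiregulin, at a distance of 0.85, with 0 and 143.2 CPM. Cd44 was nearest to Cflar, an inhibitor of caspase-8, at a distance of 0.86, with 146.3 and 1407 CPM.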

How the data were processed

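Total RNA from 6 BMDM libraries was sequenced, and the authors deposited raw counts per gene without normalization. The submitters' processing notes name FastQC 0.11.9, HISAT2 2.1.0, SAMtools 1.17 and featureCounts 2.0.0 and the GRCm38 (mm10) build. The annotation release, strand setting and treatment of multiply mapped reads are not given in the sources used here, so genes that overlap or resemble others are uncertain.

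Symbols and coordinates came from GENCODE M21, which shares 55154 of 55335 identifiers with the table once versions are ignored. Of 116 listed genes 115 were found, and Cd99 was not. Differences were fitted in R 4.3.3 with edgeR 4.0.16 (filterByExpr, TMM, quasi-likelihood test, two-sided, Benjamini-Hochberg over 15687 genes), after the steps were tested on simulated data. The fold and p criteria are those of the study. Log2 CPM for profile distances used a prior count of 2. An exact permutation test of 3 against 3 libraries cannot give a p below 0.1. Floors cover counting error only, since reads carry no molecular identifiers.

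The members and gene lists were chosen with earlier results of these data known. Named genes were the 9 members, up to 3 called genes per direction of each related list, Tnf, the nearest gene of each called member overlapping genes, and markers at or near 0 (Tek, Emcn, Cldn5 and Ptprb). Icam5, Fut4, Glg1, Itgb2, Itgam, Itga4, Itgb1, Itga9, Nectin1, Msn, Rdx, Adam10, Adam17, Cd6, Ninj2, Cd14, Fcgr1, Cdh5, Vwf and Kdr were named after their values were seen. Of the other marker lists, neutrophil genes summed to 33.2 to 35.1 CPM in Control and 43.4 to 45.3 CPM in LPS with 0 of 5 called, and lymphocyte genes to 0.567 to 0.759 and 0.643 to 1.04 CPM with 0 of 5 passing the filter.

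The labels place same-numbered libraries in 1 batch, which pairs them. Their deviations from the group means correlated at -0.01, 0.08 and 0.04. Alternatives were 3 other scalings, 2 other filters, DESeq2 1.42.0, limma voom (limma 3.58.1), a replicate block, leaving out the 10 genes of highest count, and leaving out each library.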

Additional observations from a re-analysis of the deposited data

How the results depend on the processing

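Over 15 alternatives, 351 of 357 fold changes of 24 genes kept their sign and their side of an adjusted p of 0.05. The 24 were the 9 adhesion genes, Tnf and the called genes of the related lists. Named genes that were not called, such as Glg1, Rdx, Itgb2, Itgam and Adam10, were not followed through the alternatives. Their log2 fold changes of 0.12 to 0.26 are smaller than the shift of -0.40 with library size alone. Genes of the marker lists were not followed as markers either. Of the counts, 183 of 195 stayed within 1.5 times. Calls, which also need a log2 fold change beyond 1, were lost in 21 of the 357, all of Tpst2, Itgad, Itga9 and Icam5, whose values were then 0.60 to 0.997. Scaling by library size alone gave 2964 genes called lower instead of 1624, with 29.0% instead of 50.4% of the calls higher, and 1 selectin or ligand gene higher and 2 lower, 2 integrins higher and 1 other immunoglobulin-family gene lower. It turned Selplg to -0.27, Icam2 to -0.35 and Alcam to -0.17 and gave 0.24 for Pecam1. Upper quartile scaling gave 1 selectin or ligand gene and 2 integrins higher and turned Selplg to -0.012 and Icam2 to -0.088. Both scalings shift all genes together, by -0.40 and -0.14. A minimum of 10 counts in every library, which tests fewer genes, gave 1027 genes called lower, 1 selectin or ligand gene and 2 integrins higher, and no value for Sele. With no filter 2 integrins were called higher, since Itgad (0.98) and Itga9 (0.98) then lay under the fold criterion. The median log2 fold change of the genes tested was -0.04 in that fit and -0.01 in the main fit, and the cause of the shift was not tested. Leaving out each library gave 2 to 4 integrins called higher (2 without LPS library 1), and 4 of the 9 adhesion genes higher each time. The fit with the replicate block, which uses the pairing, called 4 of the 9 adhesion genes and 1652 of all tested genes higher. It changed no call of the 24 genes and no count of calls in the lists. Genes under about 10 counts, such as Sele in Control, are limited by depth.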
